A study of Homo sapiens with 21 samples.

Results

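A group of 10 secreted or extracellular regulators of bone morphogenetic protein (BMP) and activin signalling were examined in RNA-seq of HMLE cells, an immortalised human mammary epithelial line, during treatment with TGFβ. They were *BMP1*, *BMP2*, *BMP4*, *BMP6*, *BMP7*, *INHBA*, *INHBB*, *GREM1*, *FST* and *FSTL1*, chosen by symbol from the 23201 genes listed with a normalised read count. The 7 timepoints were untreated cells (d0) and cells after 1, 4, 7, 10, 15 and 20 days of TGFβ (d1 to d20), with 3 libraries each, which the study names biological triplicates of one cell line. All wells were seeded at one density, and d0 was the only untreated timepoint, so days in culture and days of TGFβ cannot be told apart. Every comparison with d0 shares the same 3 untreated libraries.

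The libraries held 18847917 to 22667754 reads each. Outside d7, the 18 pairs of libraries from one timepoint had root mean square log2 differences between 0.214 and 0.243. The d7 value was 0.223 for the first 2 libraries in file order but 0.472 and 0.457 for the third against each of them. For the members that could be tested, d7 results that turn on the third library are therefore also given without it. Those of other genes are not. All 7 markers of basal mammary epithelial cells were above 3 reads on every day, but their levels moved. From d0 to d20 the mean of *EPCAM* fell from 2106 to 402 and that of *CDH1* from 7195 to 2868, while *ITGA6* rose from 8586 to 19058. *KRT17* had 39309 on d0, 13305 on d10 and 186677 on d15. By the test described below, 2 of the 7 were higher and 4 lower on d20 than on d0, against 32.5% and 30.2% of all genes tested. Of 5 fibroblast markers, *DCN* and *LUM* stayed at or under 3 reads per library at all 7 timepoints, while *COL1A1* and *COL1A2* brought the summed level from 452 to 484 in the untreated libraries to 28037 to 30339 on d20. Of 4 endothelial markers *CDH5* was at or under 3 reads throughout, *PECAM1* had means of 41.3 on d0 and 9.06 to 14.7 on treated days, and *KDR* had 42.1 on d0, 2.94 on d10 and 263 on d15, with summed levels of 22.9 to 290 over the libraries. Of 4 immune markers *PTPRC* and *CD3E* were at or under 3 reads throughout, *CD68* rose from a mean of 371 on d0 to 803 on d4, and *LYZ* stayed between 13.8 and 19.5, with summed levels of 361 to 827. The part of these cell type markers in the results below was not tested. In bulk RNA, fewer cells expressing a gene and less RNA of it per cell cannot be told apart.

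BMPs and activins are dimeric ligands of the TGFβ superfamily. Both bind pairs of type I and type II receptor kinases, after which BMPs act mainly through SMAD1, SMAD5 and SMAD9, and activins through SMAD2 and SMAD3. Secreted antagonists hold the ligands away from their receptors: follistatin (*FST*) neutralises activins, and gremlin (*GREM1*) and noggin (*NOG*) bind BMPs. In spite of its name, BMP1 is not a ligand of this family but a tolloid metalloprotease that trims procollagens and cleaves the BMP antagonist chordin. In mammary epithelium these signals are known for roles in duct growth and epithelial plasticity.

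Across the treatment the 8 genes that could be tested rose to different extents and on different days. *INHBA*, *GREM1*, *FSTL1* and *BMP1* were above untreated cells on all 6 treated days, *BMP2* on 5 and *BMP4*, *BMP6* and *FST* on 4, and no tested member was called lower than in untreated cells on any day with all libraries as deposited. *BMP7* and *INHBB* stayed too low to be tested, with mean normalised read counts of 9.93 and 2.12 over the 21 libraries against a minimum of 10. Because this minimum covers all 21 libraries, *GREM1*, *BMP4* and *BMP6*, with untreated means of 0, 9.31 and 9.07, reached it through treated days. Of the genes left out, *BMP7* went from 12.3 on d0 to 6.97 on d20 and *INHBB* from 0.283 to 1.73. The filter therefore favours genes that rose, and the counts and medians of the tested genes carry that tilt. Of the 8 genes tested, 8 were higher on d1, when 31.3% of all genes tested were called higher and 28.5% lower. The count was 7 on d4 (all genes, 36.9% higher and 35.3% lower), 5 on d7 (34.6% and 32.6%), 8 on d10 (37% and 30.7%), 6 on d15 (39.2% and 37.3%) and 7 on d20 (32.5% and 30.2%). The median log2 fold change of the 8 was 1.59, 1.74, 1.10, 2.14, 1.30 and 1.36 from d1 to d20, against medians between 0.00 and 0.03 over all genes tested. Setting *GREM1* at its lower bound could not change these medians, because at that bound *GREM1* still lay above them. Since 28.5% to 39.2% of all genes were called in each of the directions in these comparisons, a call on its own set none of the members apart, and the sizes below carry the description. Calls used limma on log2(normalised read count + 1) with a Benjamini-Hochberg adjusted p under 0.05, and fold changes are on that scale, on which the added 1 draws the values of genes with few reads together.

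**Figure D1:**
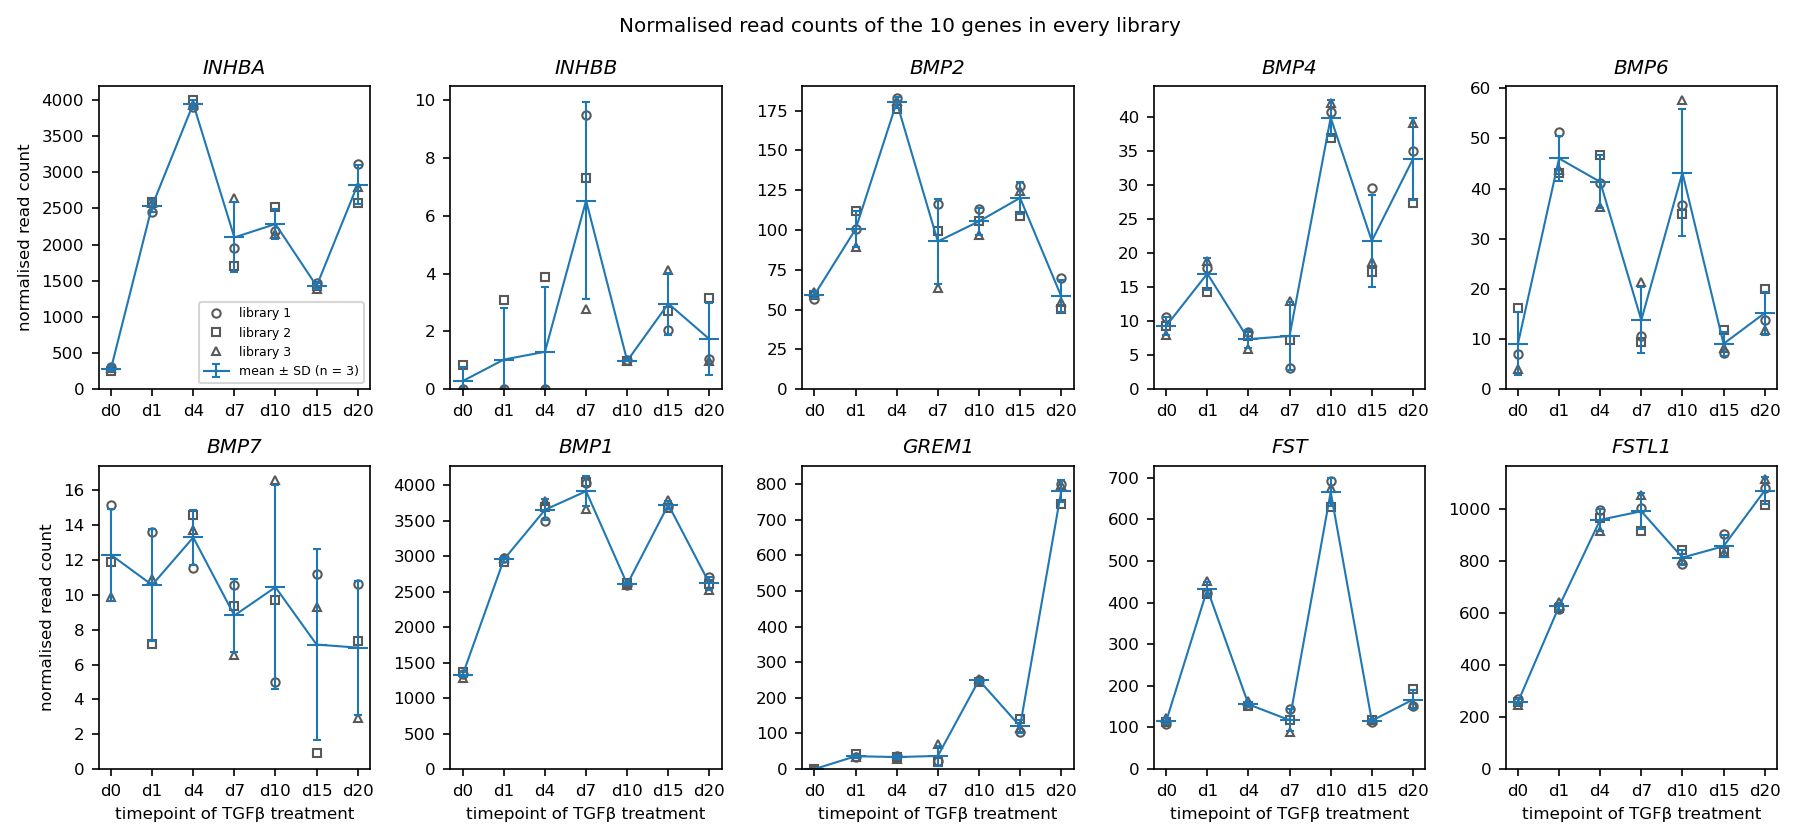
Normalised read counts (y axis, linear, a separate scale in each panel) of the 10 genes at each timepoint of TGFβ treatment (x axis, days not to scale). Open symbols are the 3 libraries in file order and bars are mean ± SD. *INHBA* rose from 286 to 3945 by d4, *GREM1* from 0 to 780 by d20, *FST* peaked on d1 and d10, and *BMP7* and *INHBB* stayed below 17.

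Levels of different genes were compared per kilobase of the longest annotated transcript, which is only an approximate correction because the transcript used by these cells was not determined. In untreated cells *BMP1* led with 306 normalised reads per kilobase, followed by *INHBA* with 47.2, *FST* with 45.3 and *FSTL1* with 43.4. *BMP2* stood at 16.4 per kilobase and *BMP4*, *BMP6* and *BMP7* at 4.86, 3.26 and 3.06. On d20 *BMP1* was still first with 601 per kilobase, *INHBA* had 467, *FSTL1* 180, *FST* 65.8 and *GREM1* 53.4, the last over an unusually long annotated transcript of 14606 bases.

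Promoter sequences were examined for 3 short motifs on both strands. CAGACA and GGCGCC are sequences that SMAD proteins are known to bind. TGANTCA, with any base at N, was searched as a loose form of the AP-1 site. RefSeq windows of 300 bases (250 before and 50 after a start, build GRCh38.p14) matched 7 of the 10 genes with 10 windows; *BMP1*, *BMP2* and *BMP7* had no entry. CAGACA was in 3 of the 10 windows (1 each of *BMP4*, *INHBA* and *GREM1*) and GGCGCC in 4 (1 each of *BMP4*, *INHBB*, *GREM1* and *FSTL1*). TGANTCA was in 1 window, that of *FST*. Among all 35116 windows listed, 16.9%, 19.2% and 7.71% held these motifs. Of these windows, 3 are printed, 5′ to 3′ on the gene's own strand, for the 3 tested genes with the largest ratio of highest to lowest timepoint mean: *INHBA* (chr7:41703041-41703340, minus strand), *GREM1* (chr15:32717754-32718053, plus strand, the first of its 2 windows) and *FST* (chr5:53480379-53480678, plus strand). Capitals mark a motif or its reverse complement.
INHBA: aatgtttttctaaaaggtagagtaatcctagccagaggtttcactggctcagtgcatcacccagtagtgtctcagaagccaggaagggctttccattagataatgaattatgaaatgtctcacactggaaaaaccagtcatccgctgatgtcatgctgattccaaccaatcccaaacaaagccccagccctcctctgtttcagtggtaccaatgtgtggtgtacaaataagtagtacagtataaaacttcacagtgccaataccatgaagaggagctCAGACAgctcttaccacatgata
GREM1: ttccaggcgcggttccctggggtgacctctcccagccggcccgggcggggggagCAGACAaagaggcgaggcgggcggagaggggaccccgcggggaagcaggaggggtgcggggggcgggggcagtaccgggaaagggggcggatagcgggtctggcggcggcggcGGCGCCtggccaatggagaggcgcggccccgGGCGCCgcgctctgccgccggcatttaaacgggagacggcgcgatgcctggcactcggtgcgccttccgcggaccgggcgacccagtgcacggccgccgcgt
FST: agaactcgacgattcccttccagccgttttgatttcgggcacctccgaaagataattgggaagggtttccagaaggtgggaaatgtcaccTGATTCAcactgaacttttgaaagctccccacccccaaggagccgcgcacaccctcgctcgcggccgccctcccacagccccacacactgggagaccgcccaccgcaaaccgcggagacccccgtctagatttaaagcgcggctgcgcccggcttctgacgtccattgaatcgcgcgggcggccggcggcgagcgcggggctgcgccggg
The *INHBA* window held CAGACA 27 bases downstream of the start. The *GREM1* window held CAGACA 196 bases and GGCGCC 83 and 52 bases upstream. The *FST* window held TGANTCA, in the form TGATTCA, 160 bases upstream. These matches describe the letters of the windows, and no binding was measured.

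*INHBA*, which encodes the subunit of activin A, had the largest rise of the 7 tested genes that were detected in untreated cells. Its normalised read counts were 308, 252 and 299 in the untreated libraries and 2444, 2584 and 2573 on d1. On d4 they reached 3906, 4004 and 3927. These 3 groups did not overlap, and the d4 mean (3945 ± 51.7, SD, n = 3) was 13.8 times the untreated mean (286 ± 30.1). The log2 fold change against d0 was 3.15 (SE 0.11, adjusted p = 2.93e-16) on d1 and 3.79 (SE 0.11, adjusted p = 7.46e-18) on d4. The level then fell, with 1946, 1709 and 2640 on d7, the highest being the third library. It was 2185, 2525 and 2141 on d10 and 1468, 1430 and 1383 on d15, the lowest treated day. On d20 it was back at 3111, 2581 and 2798. In order of the means (d4, d20, d1, d10, d7, d15, d0), d4 exceeded d20 (adjusted p = 0.000483), d7 exceeded d15 (adjusted p = 0.000261) and d15 exceeded d0. The adjacent pairs d20 and d1, d1 and d10, and d10 and d7 did not pass the test, although d20 exceeded d7 (log2 difference 0.45, adjusted p = 0.00106) and without the third d7 library d10 exceeded d7 (log2 difference 0.32, adjusted p = 3.86e-05).

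The antisense transcript *INHBA-AS1* (listed as *LOC285954*) had means of 3.74 ± 3.03 (SD, n = 3) on d0 and 15.02 ± 9.49 on d1, its highest day. Whether counting used strand is not given in the sources used here, so its reads and those of *INHBA* may not be fully separated, but its level was far below that of *INHBA* at every timepoint. *INHBB*, the subunit of activin B, had more than 3 reads in 4 of 21 libraries. Its highest values were on d7, with 9.50, 7.30 and 2.79, and on d0 it had 0, 0.85 and 0. Without the filter on low values *INHBB* was called higher on d7 (log2 fold change 2.49, SE 0.59, adjusted p = 0.00124) and on d15 (1.66, SE 0.59, adjusted p = 0.0200), from at most 9 reads in a library.

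*FST*, the secreted antagonist of activins, followed another course and peaked on d1 and d10. The untreated libraries held 109, 113 and 124 normalised reads. On d1 they held 424, 422 and 453, and on d10 they held 693, 630 and 676. Both days were clear of the untreated libraries, with log2 fold changes of 1.90 (SE 0.12, adjusted p = 1.14e-11) and 2.52 (SE 0.12, adjusted p = 7.04e-14). Between these peaks *FST* returned to 154, 151 and 163 on d4 and 145, 118 and 90.3 on d7. After d10 it fell to 112, 118 and 118 on d15, then stood at 153, 193 and 156 on d20. The d7 and d15 means of 118 and 116 did not pass the test against the untreated mean of 115 (adjusted p = 0.961 and 0.901), and the libraries overlapped. The d4 rise was small (log2 fold change 0.43, SE 0.12, adjusted p = 0.00281) and missed the threshold with libraries rescaled to equal totals (0.24, adjusted p = 0.0708). The fall from d10 to d15 was 5.73 times in the means (log2 difference -2.51, SE 0.12, adjusted p = 5.40e-14).

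Because both genes were read in the same library, the ratio of *FST* to *INHBA* was taken as log2((*FST* + 1)/(*INHBA* + 1)) in each. It averaged -1.30 ± 0.17 (SD, n = 3) in untreated cells, -2.55 ± 0.06 on d1 and -4.66 ± 0.07 on d4. It was -4.15 ± 0.61 on d7, -1.77 ± 0.20 on d10, -3.61 ± 0.08 on d15 and -4.08 ± 0.31 on d20. All 18 treated libraries (-4.85 to -1.66) lay below the 3 untreated ones (-1.50 to -1.15), a mean difference of -2.16. A two-sided exact permutation test over libraries gave p = 0.00150, the smallest that 18 against 3 can give. It took the 18 treated libraries as interchangeable, although those of one day mostly lay close together and the days differed. Its p therefore does not measure the spread between timepoints. Taken one at a time, each treated day was below d0 with an exact permutation p of 0.1, which is the smallest that 3 against 3 can give. In ratios of the means without correction for length, *INHBA* exceeded *FST* 2.49 times in untreated cells, 25.3 times on d4 and 3.43 times on d10. Per kilobase, *INHBA* and *FST* were close in untreated cells (47.2 and 45.3). They stood at 651 and 61.3 on d4 and at 377 and 262 on d10. The d10 approach to the untreated ratio came with the *FST* peak, since *INHBA* on d10 was still 7.98 times its untreated mean. This ratio leaves out *FSTL3*, a follistatin relative that also binds activins. Its means of 1364 on d0, 8105 on d4, 5609 on d10 and 9852 on d15 were above those of *FST*. The balance of all activin antagonists to *INHBA* was therefore not measured.

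**Figure D2:**
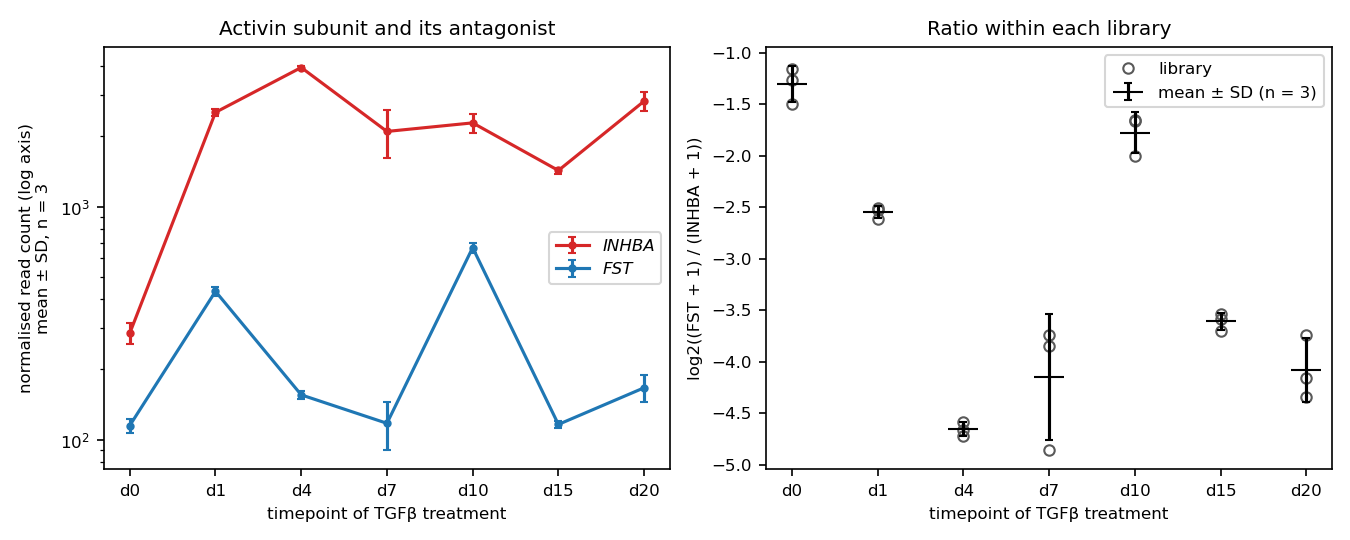
Left, mean normalised read count ± SD (log y axis, n = 3) of *INHBA* and *FST* at each timepoint (x axis). Right, the log2 ratio of *FST* to *INHBA* in each library (circles) with mean ± SD. The 18 treated libraries lie between -4.85 and -1.66, all below the untreated libraries, and d10 is nearest to them.

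Among the BMP ligands, *BMP2* rose early and returned to its starting level by d20. *BMP2* encodes a ligand known for bone and heart development. It measured 57.0, 59.4 and 61.3 in the untreated libraries and 183, 176 and 181 on d4, its peak (log2 fold change 1.59, SE 0.16, adjusted p = 1.85e-08). On d1 it was 100, 112 and 89.3. It stayed at intermediate means of 92.8 ± 26.9 on d7, 105 ± 8.33 on d10 and 120 ± 10.2 on d15. The d15, d10, d1 and d7 means did not pass the test from one neighbour to the next, although d15 exceeded d7 (log2 difference 0.41, adjusted p = 0.0380), with overlapping libraries. The d7 rise over untreated cells (log2 fold change 0.60, SE 0.16, adjusted p = 0.00298) missed the threshold with only these timepoints in the fit (adjusted p = 0.0525). Without the first d7 library, d10 exceeded d7 (log2 difference 0.40, adjusted p = 0.0332). On d20 it was 70.0, 50.5 and 54.8 and overlapped the untreated libraries (log2 fold change -0.03, SE 0.16, adjusted p = 0.875).

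*BMP4*, a ligand closely related to BMP2, had its highest means on d10 and d20. Like *BMP2* it was called higher on d1, d10 and d15, and their courses were not compared by a test. In untreated cells *BMP4* had 10.7, 9.33 and 7.92 normalised reads. It was 17.8, 14.4 and 18.9 on d1, a small rise (log2 fold change 0.80, SE 0.32, adjusted p = 0.0361) that missed the threshold under several other settings: adjusted p = 0.0571 by DESeq2, and 0.0688 to 0.107 without the second or the third d0 library or the first or the third d1 library. On d4 it was 8.41, 7.79 and 5.88, and on d7 it was 3.17, 7.30 and 13.03. Neither day passed the test against d0 (adjusted p = 0.400 and 0.301), and without the third d7 library *BMP4* was lower on d7 than on d0 (log2 fold change -0.80, adjusted p = 0.0239). On d10 *BMP4* reached 40.8, 36.9 and 42.1, clear of every earlier library (log2 fold change 2.00, SE 0.32, adjusted p = 1.23e-05). It was 29.6, 17.2 and 18.7 on d15 and 35.0, 27.4 and 39.2 on d20, when it was again above untreated cells (log2 fold change 1.75, SE 0.32, adjusted p = 7.02e-05). The d15 rise over untreated cells (log2 fold change 1.11, SE 0.32, adjusted p = 0.00361) was lost with quantile normalization (adjusted p = 0.0572). The fall from d10 to d15 (log2 difference -0.88, adjusted p = 0.0164) was lost without the second or the third d15 library (adjusted p = 0.0702 and 0.0552). The d10, d20, d15 and d1 means, in that order, did not pass the test from one neighbour to the next, but d20 exceeded d15 with a pseudocount of 10 (adjusted p = 0.0230), with only these timepoints in the fit (0.0172), with edgeR (0.0228) and without the first d15 library (0.0331). Both d10 and d20 exceeded d1 (log2 differences 1.19 and 0.95, adjusted p = 0.00704 and 0.0219).

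*BMP6*, a ligand known for its part in iron control by the liver, was high on d1, d4 and d10 and low on the other days. It measured 7.12, 16.1 and 3.96 in the untreated libraries. It rose to 51.3, 43.1 and 43.7 on d1 (log2 fold change 2.41, SE 0.36, adjusted p = 6.73e-06) and stood at 41.0, 46.7 and 36.2 on d4. It was 36.8, 35.0 and 57.7 on d10. These 3 days did not pass the test against one another, and all lay above the untreated libraries without overlap. On d7 *BMP6* was 10.6, 9.38 and 21.4, on d15 it was 7.14, 11.8 and 8.29, and on d20 it was 13.8, 20 and 11.8. Those days overlapped the untreated libraries, and the d20 call (log2 fold change 0.84, SE 0.36, adjusted p = 0.0471) was lost with edgeR (adjusted p = 0.170) and DESeq2 (adjusted p = 0.150), and fell to 0.42 without the third untreated library (adjusted p = 0.312). Without the second untreated library, the highest of the 3, *BMP6* was higher on d7 as well (log2 fold change 1.13, adjusted p = 0.00607).

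*BMP7*, a ligand known for kidney development, showed no change that could be told from the spread. Its values ran from 0.90 to 16.6 over the 21 libraries, with means of 12.3 ± 2.65 (SD, n = 3) on d0, 13.3 ± 1.56 on d4 and 6.97 ± 3.85 on d20. Without the filter on low values none of the 6 treated days passed the test for *BMP7*, the nearest being d15 (log2 fold change -1.08, SE 0.55, adjusted p = 0.104). These values rested on 1 to 17 reads per library.

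*GREM1*, the antagonist of BMP2 and BMP4, went from no read at all to a mean of 780 on d20. No untreated library held a *GREM1* read, which allows up to 3 reads per library. On d1 it measured 34.5, 41.0 and 32.8, on d4 37.9, 35.1 and 28.4, and on d7 22.2, 18.8 and 69.8. It then rose to 250, 246 and 253 on d10, stood at 105, 139 and 116 on d15 and reached 799, 744 and 796 on d20. All 18 treated libraries were above the untreated ones, and the d20, d10 and d15 groups overlapped neither one another nor any earlier day. Against 3 reads per untreated library the mean was at least 13.2 times higher on d1, at least 91.5 times on d10, at least 44.0 times on d15 and at least 286 times on d20. The rises from d7 to d10 (log2 difference 2.97, SE 0.29, adjusted p = 1.03e-08) and from d15 to d20 (2.7, SE 0.29, adjusted p = 3.30e-08) and the fall between them (-1.06, SE 0.29, adjusted p = 0.00218) all passed the test. The d7 mean of 36.9 rested on the third library. Without it the mean was 20.465 and d7 was below d4 (log2 difference -0.69, adjusted p = 0.00109), where the 3 libraries together gave -0.12 (adjusted p = 0.764).

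*FSTL1*, a secreted glycoprotein with a follistatin-like domain, rose by d4 and then held. Its untreated values were 268, 258 and 247. It measured 615, 620 and 641 on d1 and 996, 965 and 915 on d4. On d20 it was 1080, 1016 and 1117, the highest mean (1071 ± 51.4, SD, n = 3), 4.16 times the untreated one (log2 fold change 2.05, SE 0.06, adjusted p = 4.73e-18). The days between stayed within means of 813 and 992, and the 18 treated libraries all exceeded the untreated ones. Small steps passed the test in both directions, -0.28 from d7 to d10 (adjusted p = 0.000137) and 0.32 from d15 to d20 (adjusted p = 2.95e-05).

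*BMP1*, the tolloid protease, had the highest level per kilobase of the 10 genes and, among the 8 tested, the smallest ratio of highest to lowest timepoint mean. It measured 1339, 1365 and 1289 in untreated cells and 2978, 2913 and 2967 on d1. The highest mean was on d7 (3915 ± 215, SD, n = 3), 2.94 times the untreated mean (log2 fold change 1.55, SE 0.04, adjusted p = 2.05e-18). Libraries of d4, d7 and d15 held 3488 to 4048 and those of d10 and d20 held 2526 to 2709, with no overlap between these 2 sets of days. The d7, d15 and d4 means did not pass the test from one neighbour to the next, and neither did d20 and d10 (2615 and 2604, adjusted p = 0.922). The step down from d7 to d10 was -0.59 (SE 0.04, adjusted p = 7.71e-11) and the step back up to d15 was 0.52 (SE 0.04, adjusted p = 1.59e-10).

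**Figure D3:**
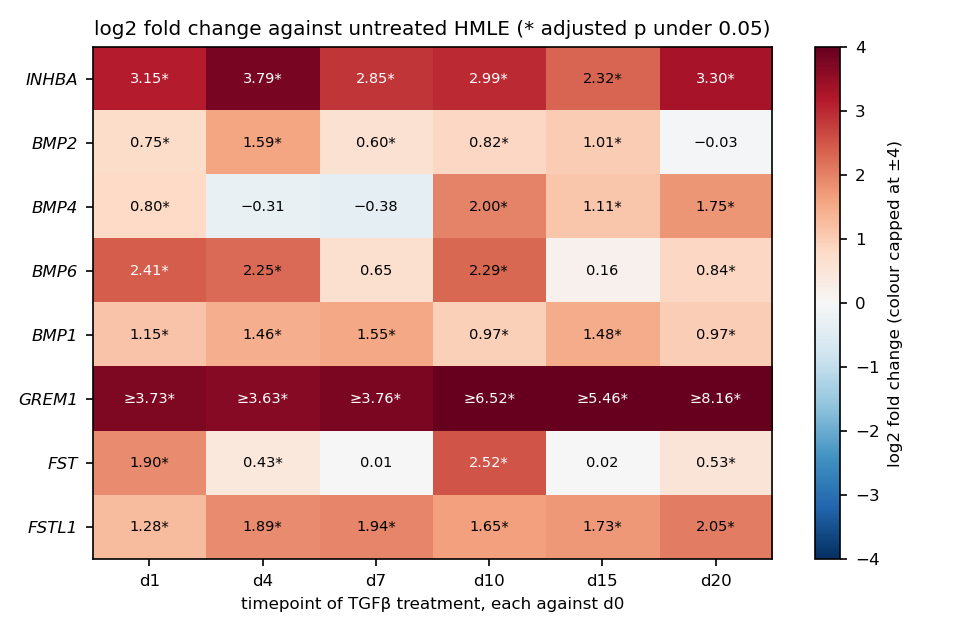
Log2 fold change against untreated HMLE cells (colour, red higher and blue lower) of the 8 genes tested (rows) on each treated day (columns), from limma. An asterisk marks an adjusted p under 0.05, and the *GREM1* row gives lower bounds computed from 3 reads per untreated library. *INHBA*, *GREM1*, *FSTL1* and *BMP1* carry an asterisk on all 6 days, and *FST* is strongest on d10 at 2.52.

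Between successive timepoints the members moved in both directions. From d1 to d4, 4 rose (*BMP1*, *BMP2*, *FSTL1*, *INHBA*) and 2 fell (*BMP4*, *FST*), with 32.9% of all genes tested higher and 32% lower. From d4 to d7, 1 rose (*BMP1*, by a log2 difference of only 0.10, adjusted p = 0.0455, lost at 0.236 with only these timepoints in the fit and at 0.0608 to 0.223 without the first or second library of d4 or of d7) and 4 fell (*BMP2*, *BMP6*, *FST*, *INHBA*), against 25.5% higher and 25.5% lower. The *FST* fall (-0.43, adjusted p = 0.00536) was lost with only these timepoints in the fit (adjusted p = 0.0930). From d7 to d10, 4 rose (*BMP4*, *BMP6*, *FST*, *GREM1*) and 2 fell (*BMP1*, *FSTL1*), against 36.2% and 35.2%. From d10 to d15 the direction turned, with 1 higher (*BMP1*) and 5 lower (*BMP4*, *BMP6*, *FST*, *GREM1*, *INHBA*), against 39.3% and 40.5%. From d15 to d20, 4 rose (*FST*, *FSTL1*, *GREM1*, *INHBA*) and 2 fell (*BMP1*, *BMP2*), against 37.7% and 36.3%. Thus *FST*, *GREM1*, *BMP4* and *BMP6* rose to d10 and fell to d15, and *BMP1* fell to d10 and rose to d15. Consecutive steps share a timepoint, so a high d10 gives both a rise and a fall.

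For each gene tested, up to 3 genes with the most similar course are given, by the root mean square difference of the 7 timepoint means of log2(value + 1), each gene centred on its own mean. *BMP1* was closest to *PHLDB1* (0.054), *PPP1R13L* (0.085) and *ALS2CL* (0.099). *FSTL1* was closest to *GALNT10* (0.13), *GAS6* (0.14) and *ITGA1* (0.15), and *BMP2* to *TNFRSF25* (0.18), *FAM20C* (0.21) and *PCDH1* (0.21). *BMP6* was closest to *DUSP6* (0.23) and *PHLDA1* (0.27). Of these, *DUSP6*, a phosphatase that acts on ERK, went from a mean of 464 on d0 to 2567 on d1, 972 on d7, 2920 on d10 and 686 on d15. *INHBA* was closest to the laminin gene *LAMB3* (0.29), with *NT5E* at 0.32, and *FST* to *PLCB2* (0.30), *SH2D5* (0.35) and the endothelin receptor gene *EDNRA* (0.36). *BMP4* was closest to the potassium channel gene *KCNMA1* (0.37), *LOC100287616* (0.41) and *FSD1* (0.44). *GREM1* had no close neighbour, with *HECW2* at 0.75, the cadherin gene *CDH11* at 0.84 and *NTM* at 0.99. With only 7 means, these distances describe the curves alone.

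The rest of the pathway was described from lists of known members. The counts of each list are to be read against the shares of all genes tested, 31.3% to 39.2% higher and 28.5% to 37.3% lower than d0. Among 14 other secreted antagonists, 5 could be tested, and 2, 2, 4, 3, 3 and 3 of them were higher from d1 to d20, with 1 lower on d4. Noggin (*NOG*) went from 3.83 ± 1.99 (SD, n = 3; 2 to 7 reads) to 72.9 ± 2.96 on d1 and stayed between 47.5 and 86.7 afterwards, with log2 fold changes of 3.38 to 4.27 on the 6 days. *FSTL3*, a follistatin relative that also binds activins and belongs to the follistatin-like list too, rose from 1364 ± 67.7 to 6029 ± 84.0 on d1 and 9852 ± 111 on d15 (log2 fold change 2.85, SE 0.08, adjusted p = 2.51e-18). *FSTL3* was called higher on all 6 days. *CRIM1* and *TWSG1* moved by at most 0.61 on the log2 scale. With equal totals in all libraries, *CRIM1* turned on d7 and d10 and *TWSG1* on d7. Of the 5 follistatin-like genes, 3 were tested; *SPARC* rose on all 6 days (means of 6648 on d0 and 13567 on d20), while *FSTL4* was lower on d1, d4, d10 and d20, with means of 73.8 on d0 and 15.7 on d10.

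Of 24 other BMP, GDF and activin-type ligands, 10 had at most 3 reads in every library and 8 could be tested. They were called higher in 1, 2, 3, 1, 4 and 2 cases and lower in 5, 1, 1, 5, 0 and 3 from d1 to d20, against 31.3% to 39.2% of all genes tested higher and 28.5% to 37.3% lower, and several of these counts were near that share. *GDF15*, a stress-induced cytokine, was 77.9 ± 14.7 on d0, 25.5 ± 1.81 on d10 and 596 ± 23.4 on d15. *GDF5*, a ligand of joint development, was 12.4 ± 1.61, 3.61 ± 1.19 and 76.3 ± 9.31 on the same days. Both were lower than untreated on d1 and d10 and higher on d7 and d15. The d7 libraries, however, held from 95 to 543 reads of *GDF15* and from 20 to 74 of *GDF5*. On d1 and d10 *FST* was at its highest, and on d7 and d15 it was at the untreated level. *INHBE*, an activin subunit gene, was lower on d1, d4, d7 and d10. Its d15 and d20 calls were lost with libraries rescaled to equal totals (adjusted p = 0.0542 and 0.149). *BMP8B* was lower on d1, d10 and d20, but it has a near-identical copy, *BMP8A*, and the reads of these 2 genes may not be separated.

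Of 9 receptor genes, 7 were tested, with 2, 4, 3, 2, 4 and 2 higher and 3, 1, 1, 4, 1 and 5 lower from d1 to d20, against 31.3% to 39.2% of all genes tested higher and 28.5% to 37.3% lower, so most of these counts were near the share of all genes. *BMPR2*, the type II BMP receptor, rose from 1460 ± 41.6 to 3213 ± 117 on d15 and was higher on all 6 days (log2 fold change 0.53 to 1.14). The type I receptor gene *BMPR1A* was lower on all 6 days (784 ± 16.9 on d0 and 567 ± 23.6 on d1, log2 fold change -0.47, SE 0.05). *ACVR1* was called higher on all 6 days, by at most 0.60, but on d1 and d10 its direction turned (-0.02 and -0.03) with libraries rescaled to equal totals. *ACVR2B*, a type II receptor for activins, was higher on d4 and d15 and lower on d1, d10 and d20. Of the 8 co-receptor genes in the table, 5 were tested. *BAMBI*, a pseudoreceptor that dampens signalling, peaked on d4 (14.8 ± 0.78 to 56.4 ± 8.81), and *TGFBR3* was lower on every day but d15. *ENG* was higher on every day but d7, when its libraries ran from 659 to 1064. *NEO1* was lower on d1, d10 and d20 and higher on d4, d7 and d15, though its d4 call was lost with libraries rescaled to equal totals.

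The SMADs that carry the signal moved little. Of the 6 tested, 2, 3, 2, 0, 3 and 1 were higher and 1, 1, 1, 2, 3 and 2 lower from d1 to d20, against 31.3% to 39.2% of all genes tested higher and 28.5% to 37.3% lower, which is near the share of all genes on most days. *SMAD9*, one of the BMP effectors, had the largest change, from 47.9 ± 2.20 to 20.8 ± 3.31 on d20 (log2 fold change -1.17, SE 0.19, adjusted p = 1.74e-05). The calls of *SMAD4*, at most 0.42, turned on d1, d7 and d20 with libraries rescaled to equal totals. Of 10 BMP-induced target genes, 7 were tested and 6, 6, 6, 4, 7 and 6 were higher, with 0 lower on any day. *SMAD7*, an inhibitory SMAD that TGFβ itself also induces, rose from 108 ± 9.23 to 928 ± 22.3 on d4 (log2 fold change 3.10, SE 0.07, adjusted p = 7.28e-20). *ID2* reached 26.4 ± 1.45 on d7 from 4.23 ± 1.00. *HEY1* was highest on d4 (81.1 ± 17.3 from 22.1 ± 6.80) and *MSX1* on d10 (25.8 ± 2.89 from 4.75 ± 2.57). Since several of these genes respond to TGFβ as well, their counts do not separate the ligands.

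**Figure D4:**
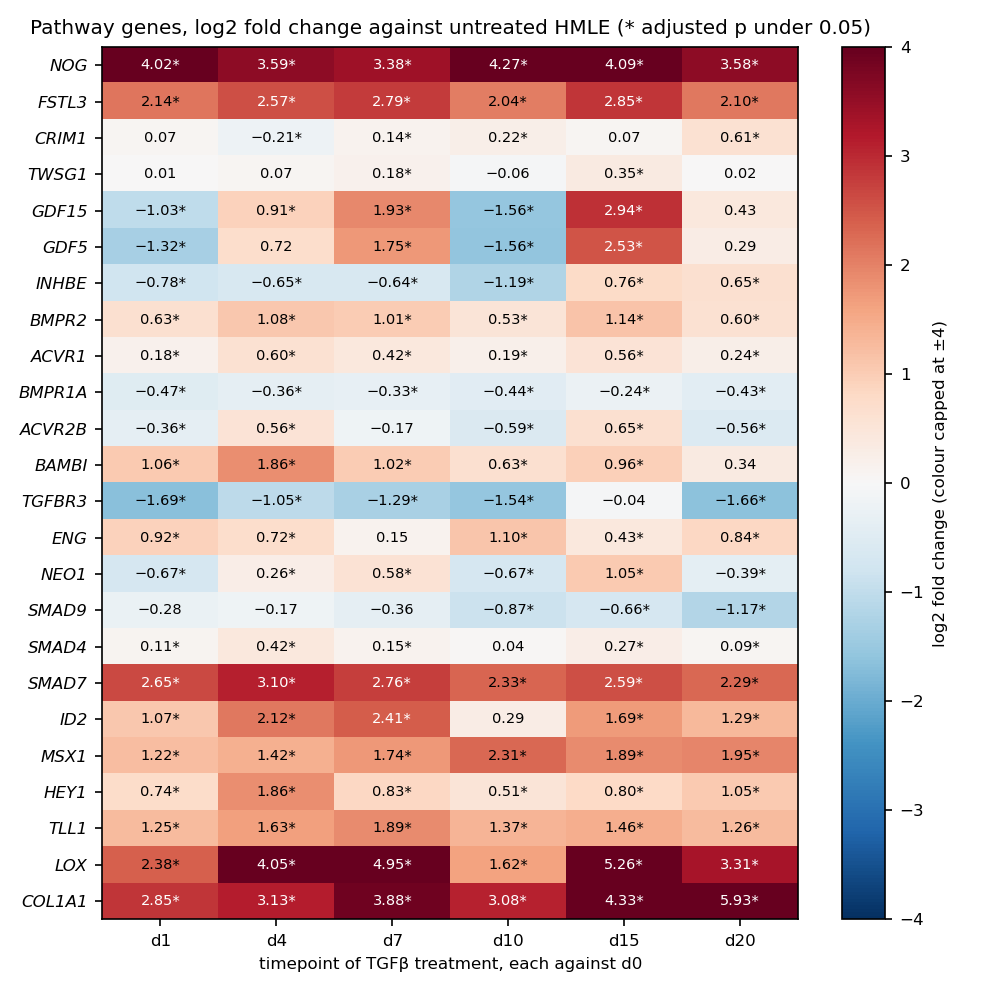
Log2 fold change against untreated HMLE cells (colour, capped at 4 either way) of 24 other genes of the pathway (rows) on each treated day (columns), from limma, with an asterisk for an adjusted p under 0.05. *NOG*, *FSTL3*, *SMAD7*, *TLL1*, *LOX* and *COL1A1* are higher on all 6 days, *BMPR1A* is lower on all 6, and *GDF15* and *GDF5* are lower on d1 and d10 and higher on d7 and d15.

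The substrates of BMP1 were mostly higher. Of 9 procollagen, laminin, lysyl oxidase and proteoglycan genes tested, 6, 8, 9, 7, 9 and 9 were higher from d1 to d20. Of all genes tested, 31.3% to 39.2% were higher and 28.5% to 37.3% lower. The proteoglycan gene *BGN* was lower on d1, d4 and d10 (log2 fold changes -1.39, -0.88 and -0.65). *COL1A1*, a chain of type I procollagen, went from 462 ± 15.6 to 28233 ± 1193 on d20. *COL1A2*, the other chain, went from 3.06 ± 0.79 to 691 ± 62.3. Lysyl oxidase (*LOX*), which cross-links collagen, rose from 322 ± 16.7 to 12325 ± 350 on d15 and was 993 ± 68.7 on d10, its lowest treated day. *COL5A1* had no read in untreated cells and was at least 21.4 times higher on d15, taking 3 reads per untreated library. Of the other tolloid genes and their helpers, *TLL1* was higher on all 6 days (407 ± 10.8 on d0 and 1528 ± 290 on d7). *PCOLCE*, which speeds procollagen cleavage, was higher on d4, d7 and d15, the days when *BMP1* was at its highest. *PCOLCE2* was lower on d4 and d7 and higher on d10 and d20, its d10 call being lost with libraries rescaled to equal totals (adjusted p = 0.196).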

How the data were processed

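RNA-seq libraries of HMLE cells came from 7 timepoints with 3 libraries each, grouped by their labels. The authors deposited 1 normalized signal per gene symbol and library, equal to whole reads divided by 1 size factor per library and rounded. Whole reads were recovered for 100% of the 14871 to 15606 values checked per library (tolerance 0.0051, slightly wider at higher reads). Values without reads and the largest values were not part of this check. The submitters' processing notes name STAR 2.7, Salmon 1.4 and hg19, and the size factor tool is not given in the sources used here.

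Genes with a mean of at least 10 over the 21 libraries (13343) entered limma 3.58.1 (R 4.3.3) as log2(value + 1), with 1 mean per timepoint, eBayes with trend, Benjamini-Hochberg adjustment over all genes within each comparison and a threshold of 0.05. Scripts were tested on simulated data. Results were recomputed with a pseudocount of 10, without the filter (19546 genes), libraries rescaled to equal totals, quantile normalization, only the timepoints compared, edgeR 4.0.16 (quasi-likelihood, TMM) and DESeq2 1.42.0 on recovered reads, a minimum absolute log2 fold change of 1, and each library left out in turn. At most 3 reads per library was taken as the floor. Lengths came from GENCODE 29. Genes named were the 10 members, up to 4 called genes with the largest change in each pathway list, and the 3 nearest genes per member, some of which are not reported here; *INHBA-AS1* was added because it overlaps *INHBA*. Members and lists were chosen with earlier results of these data known.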

Additional observations from a re-analysis of the deposited data

Results flagged for a closer look

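For each of the 8 genes tested, the effect against untreated cells was compared between 2 treated days, as a test of the difference itself (limma, adjusted p). These were the days with its highest and lowest log2 fold change. By plain means the lowest treated day was not d7 but d4 for *GREM1* (33.8 against 36.9) and *BMP4* (7.36 against 7.83), and d15 for *FST* (116 against 118). The days were picked as the extremes of 6, which makes a pass likely. The log2 difference was 4.61 for *GREM1* (d20 over d7, adjusted p = 7.00e-11, where the third d7 library held 69.8 against 22.2 and 18.8 in the others). It was 2.52 for *FST* (d10 over d7, adjusted p = 7.36e-13), 2.38 for *BMP4* (d10 over d7, adjusted p = 1.14e-06) and 2.25 for *BMP6* (d1 over d15, adjusted p = 8.45e-06). *BMP2* differed by 1.62 (d4 over d20, adjusted p = 2.48e-08) and *INHBA* by 1.47 (d4 over d15, adjusted p = 2.99e-10). The smallest were 0.77 for *FSTL1* (d20 over d1, adjusted p = 7.14e-10) and 0.59 for *BMP1* (d7 over d10, adjusted p = 7.71e-11). Groups of 3 libraries are too small for a test of single outlying values.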

How the results depend on the processing

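Depth limited *BMP7*, *INHBB* and the untreated levels of *BMP4*, *BMP6* and *GREM1*, all at 19 or fewer reads per library. No paired analysis was possible because library columns show only the day, and libraries left out are numbered in file order. Rescaling to equal totals moved the median of all genes against d0 by -0.16 to -0.23 on the log2 scale. Of 313 recomputed counts and ratios, 295 stayed within 1.5 times or on the same side of the threshold and 18 moved. Members lower on d7 than on d0 were 1 instead of 0 with quantile normalization, and 0 to 1 with a library left out (*BMP4*, without the third d7 library). With a minimum log2 fold change of 1, members higher on d20 than on d0 were 4 instead of 7. Under the same minimum the steps gave 0 higher from d1 to d4, 0 higher and 1 lower from d4 to d7, 0 lower from d7 to d10, 0 higher and 3 lower from d10 to d15, and 1 higher and 1 lower from d15 to d20. From d4 to d7, 0 were higher with only these timepoints in the fit and 0 to 1 with a library left out. From d10 to d15, 2 were higher with equal totals and with quantile normalization.

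Among the single genes 1069 of 1144 recomputed values were the same, 31 lost a call, 14 gained one and 30 changed sign, none of the last past the threshold before or after. The log2 values that changed sign are given by setting, with the range over all libraries left out. *BMP2* ranged from -0.17 to 0.064 for d20 against d0 and from -0.028 to 0.40 for d10 against d7, and was -0.051 for d15 against d10 with quantile normalization. *BMP4* ranged from -0.80 to 0.075 for d7 against d0. For d7 against d4 *BMP4* was 0.0043 with a pseudocount of 10, 0.14 with edgeR and 0.12 with DESeq2, and ranged from -0.49 to 0.38. *BMP6* d15 against d0 was -0.27 with quantile normalization, -0.046 with edgeR and -0.015 with DESeq2, and ranged from -0.25 to 0.64. *GREM1* ranged from -0.18 to 0.019 for d4 against d1 and from -0.69 to 0.23 for d7 against d4, with 0.19 from edgeR and 0.14 from DESeq2. *FST* d7 against d0 was -0.18 with equal totals and -0.11 with quantile normalization, and ranged from -0.15 to 0.18. *FST* d15 against d0 was -0.14 with equal totals, -0.093 with quantile normalization and -0.00306 with edgeR, and ranged from -0.023 to 0.070. The causes were not tested. The log2 ratio of *FST* to *INHBA* fell by 2.03 to 2.26 in every alternative run.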
